A study of Rattus norvegicus with 36 samples.

Results

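The genes described here encode the enzymes that make or break down the lipid mediators derived from arachidonic acid: Ptgs1, Ptgs2, Ptges, Hpgd and Hpgds of the prostaglandin branch, and Alox5, Alox5ap, Alox15, Lta4h and Ltc4s of the lipoxygenase branch. They were chosen by name, with earlier results of these data known. Every array probe, controls apart, that carried 1 of these 10 gene names was taken, which gave 16 probes, and all 10 genes were among the 23940 genes tested. In exposed lungs, Alox15 was lower on day 1, day 30 and day 180 after exposure, each time by a fold change of more than 2, but on day 1 the Alox15 difference was -0.00 on the only array scan date that held both groups. On day 180, Ptges was higher and Hpgd was lower, and the Ptges call was lost without 2 vehicle arrays on which its probe was dim. Ptgs2, the inducible cyclooxygenase, did not pass the test at any time.

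RNA came from the accessory lobe of the lung of female Sprague Dawley rats, 13 weeks old at exposure. Exposed rats had received 10 mg of DQ-12, a quartz dust used as a reference crystalline silica, as a single intratracheal instillation in saline, and vehicle rats had received saline alone. The authors had ground this dust before use, which by their account lowered its crystallinity and particle size and added some tungsten and cobalt. The lungs were taken on day 1 (D1), day 30 (D30) or day 180 (D180), with 6 vehicle and 6 DQ-12 rats at each time and the RNA of each rat hybridized to its own single-color Agilent array (36 arrays). The samples were pieces of whole lung, in which fewer cells of a type and less RNA per cell cannot be told apart. The 8 lung marker genes, among them the surfactant protein gene Sftpc, were well above background on all arrays. From 51.3 to 75.5% of probes were well above background per array, and the median correlation between arrays of a group was 0.973 to 0.981. The arrays had been scanned on 11 dates. At D1, only 1 of 3 scan dates held both groups, with 1 vehicle and 6 DQ-12 arrays, whereas both scan dates of D30 did, and at D180 the shared dates held 4 arrays of each group.

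Eicosanoids are made on demand from arachidonic acid, which phospholipases A2 release from membranes. The cyclooxygenases, encoded by Ptgs1 and Ptgs2, turn it into prostaglandin H2, from which terminal synthases make the individual prostanoids, while the lipoxygenases add oxygen to it and start the leukotrienes, the lipoxins and the hydroxy fatty acids. In the lung, prostaglandin E2 and the leukotrienes act on airway and vessel tone and on the entry of leukocytes, and the lung is also a main site where circulating prostaglandins are taken up and broken down.

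Sequences are shown for the genes whose levels the results turn on. The promoter windows are the 250 bases before the RefSeq start on GRCr8, and the window was listed for 7 of the 10 genes (not for Hpgds, Alox5ap and Alox15). Capitals mark matches, on either strand, to the motifs named after the sequences. The cyclooxygenase gene Ptgs2 lies on the plus strand, with its window at chr13:64713813-64714062, and is shown beside Ptges, its partner in prostaglandin E2 synthesis, since at D180 the latter passed the test and Ptgs2 did not. The Ptges window lies at chr3:34586988-34587237 and the Hpgd window at chr16:39034832-39035081, both on the minus strand and written 5′ to 3′ along the gene.
Ptgs2: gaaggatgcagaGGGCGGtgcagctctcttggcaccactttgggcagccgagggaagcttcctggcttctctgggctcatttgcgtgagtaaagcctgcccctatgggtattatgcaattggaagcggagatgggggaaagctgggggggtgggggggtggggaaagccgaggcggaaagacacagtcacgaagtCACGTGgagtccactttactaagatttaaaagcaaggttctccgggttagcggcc
Ptges: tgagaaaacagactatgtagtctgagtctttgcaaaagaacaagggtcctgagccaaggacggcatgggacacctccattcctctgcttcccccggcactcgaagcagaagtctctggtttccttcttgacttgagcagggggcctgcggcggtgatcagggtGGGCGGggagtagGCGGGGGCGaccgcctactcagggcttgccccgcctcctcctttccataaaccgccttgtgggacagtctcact
Hpgd: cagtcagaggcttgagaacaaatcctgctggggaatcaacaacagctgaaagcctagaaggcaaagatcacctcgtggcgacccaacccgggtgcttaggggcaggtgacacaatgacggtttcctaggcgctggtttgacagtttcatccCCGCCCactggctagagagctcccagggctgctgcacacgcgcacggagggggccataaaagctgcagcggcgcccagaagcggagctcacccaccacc

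The GC box (GGGCGG) was present in each of these 3 windows and in 5 of the 7 listed, against 30.5% of 33465 windows of the same length. The letters of an EGR site (GCGGGGGCG) were found, of the 7, in Ptges, 66 to 74 bases before its start, and in 2.45% of all windows. An E-box (CACGTG) was found in Ptgs2, 50 to 55 bases before the start, and in 5.59% of all windows. An AP-1 site (TGANTCA, 6.34% of all windows) and a TATA box (TATAAA, 12.9%) matched in none of the 7, and an NF-kappaB site matched in Alox5 alone of the 7 and in 6.33% of all windows. No motif overlapped another in the windows shown. A match is a match of letters and says nothing of binding. For Alox15 the sequence measured is shown in place of the promoter, since its fall was the one seen at each time. Its single probe on the array lies at chr10:57186202-57186261 on the minus strand of rn4, the build named in the array files, within a gene that RefSeq places on chromosome 10 of GRCr8.
Alox15: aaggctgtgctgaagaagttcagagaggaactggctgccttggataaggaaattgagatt

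A gene was called changed when DQ-12 and vehicle differed by a fold change of at least 2 with an adjusted p under 0.05 (limma over all 36 arrays, Benjamini–Hochberg adjustment over all genes tested at that time). Levels below are log2 signals after quantile normalization, and they are compared between rats for a gene, never between genes. At D1, 1 of the 10 genes was called (Alox15, lower), against 3.07% of all genes tested (2.02% higher and 1.05% lower). At D30 the same gene was again the only 1 of the 10, against 1.05% of all genes (0.915% higher and 0.138% lower). At D180, 3 of the 10 were called, with Ptges higher and Hpgd and Alox15 lower, against 3.63% of all genes, 2.86% higher and 0.773% lower. By the adjusted p alone, without the fold threshold, 4 genes passed at D1 (Alox5ap higher and Ptgs1, Alox15 and Lta4h lower), 1 at D30 (Alox15) and 3 at D180. Of all genes, 16.2% passed by the adjusted p at D1 (7.58% higher and 8.62% lower), 3.98% at D30 (2.74% higher and 1.24% lower) and 16.8% at D180 (7.82% higher and 9.0% lower). The median log2 fold change of the 10 was -0.08 at D1, -0.29 at D30 and 0.03 at D180, beside -0.01, -0.02 and -0.03 over all genes.

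**Figure D1:**
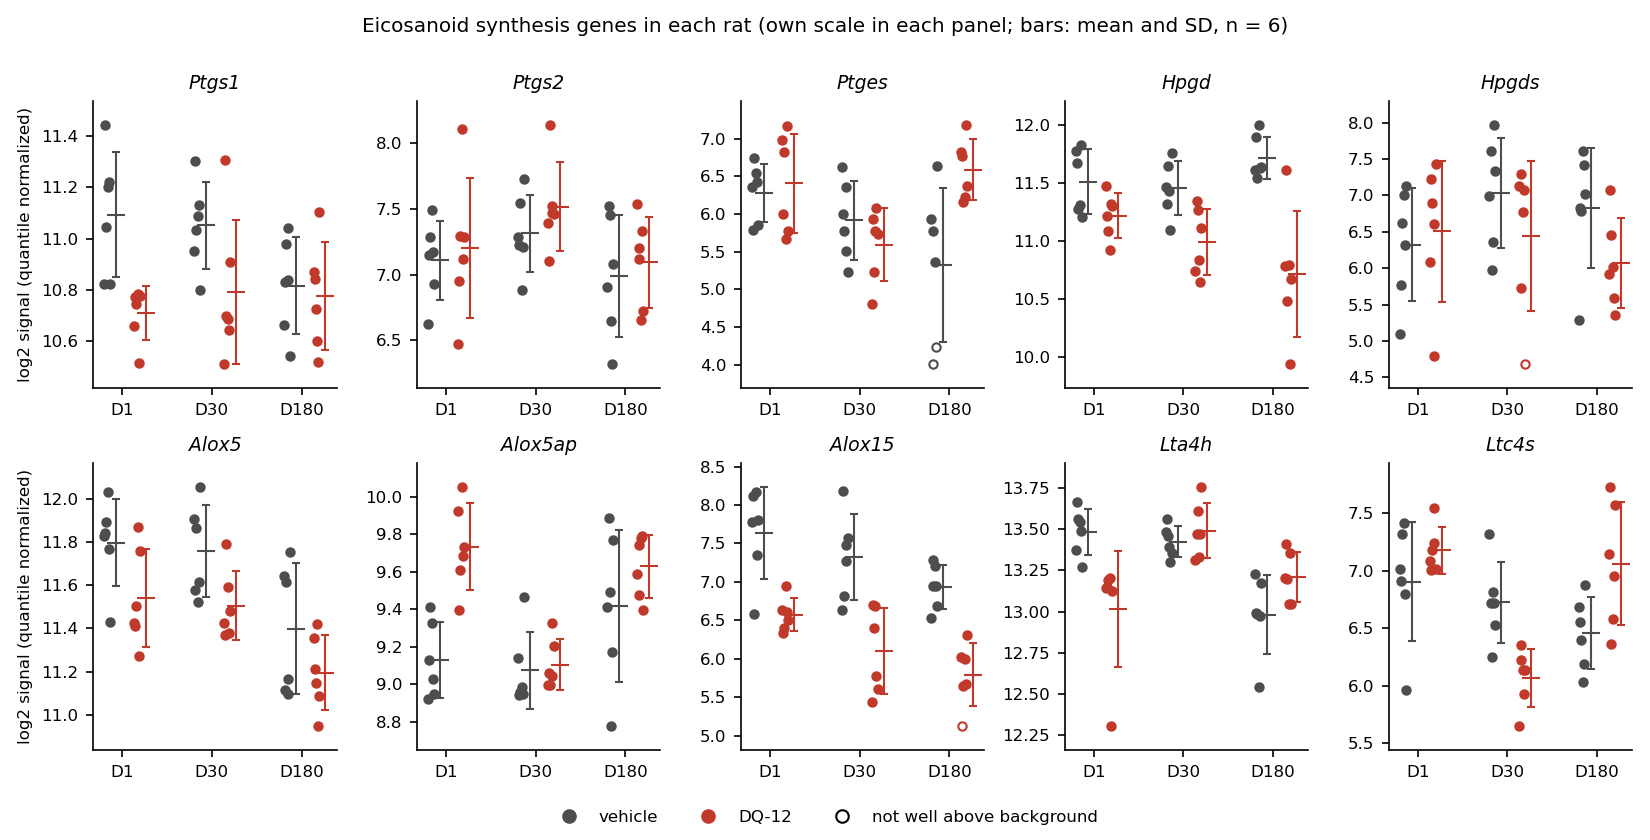
Log2 signal (vertical axis, quantile normalized, own scale in each panel) of the 10 genes in each rat at D1, D30 and D180, vehicle in gray and DQ-12 in red, with the mean and SD of 6 rats and open points for arrays on which the probe was not well above background. Alox15 lay lower in DQ-12 rats at each time, with no overlap at D180, and 2 vehicle rats at D180 had Ptges signals near 4.

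**Figure D2:**
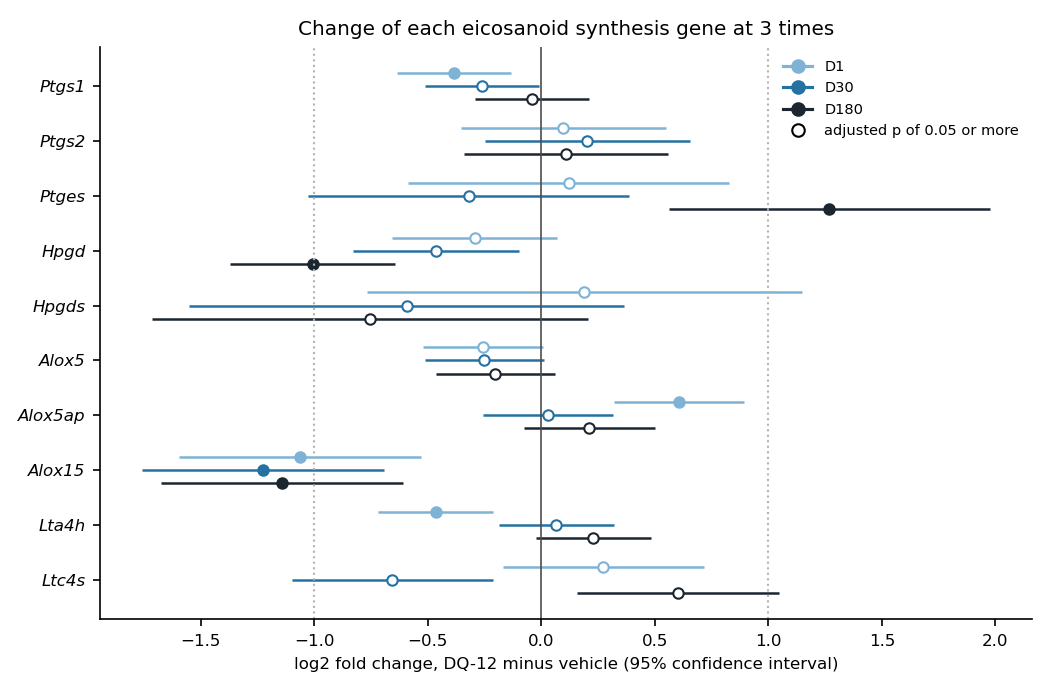
Log2 fold change (horizontal axis, DQ-12 minus vehicle, with its 95% confidence interval) of each gene at the 3 times, 6 rats per group, with filled points for an adjusted p under 0.05 and dotted lines at a fold change of 2. Alox15 lay beyond the lower line at each time and Ptges beyond the upper one at D180, while the 3 intervals of Ptgs2 all spanned 0.

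The cyclooxygenases carry out the first step of prostanoid synthesis. Ptgs1, the constitutive form, ranged from 10.82 to 11.44 (median 11.12) in vehicle rats at D1 and from 10.52 to 10.78 (median 10.76) in DQ-12 rats. The groups did not overlap, as for 11.2% of all genes at D1 (5.23% higher and 5.96% lower). Of the 10 genes this held for Ptgs1 and Lta4h at D1, for none at D30 (2.36% of all genes, 1.81% higher and 0.547% lower) and for Alox15 at D180. The difference was -0.38 ± 0.12 (log2, SE, n = 6 per group, limma adjusted p = 0.0295), and it was -0.34 on the scan date that held both groups. At D30 the Ptgs1 difference was -0.26 (adjusted p = 0.293) and at D180 it was -0.04 (adjusted p = 0.888, 95% confidence interval -0.29 to 0.21). The D1 difference no longer passed with scan date as a random block (-0.37, adjusted p = 0.134), nor when vehicle replicate 2, 5 or 6 or DQ-12 replicate 1 or 2 was left out (adjusted p up to 0.0919). Ptgs2, the form that inflammatory signals induce in many cells, ranged in vehicle rats from 6.63 to 7.49 at D1, from 6.88 to 7.73 at D30 and from 6.32 to 7.52 at D180. In DQ-12 rats it ranged from 6.47 to 8.11, from 7.11 to 8.14 and from 6.65 to 7.54. The groups overlapped at each time, with 1 DQ-12 rat above all vehicle rats each time. Its differences were 0.10, 0.20 and 0.11 (adjusted p = 0.829, 0.77 and 0.822), and the highest upper bound of the 3 confidence intervals, 0.65 at D30, excluded a 2-fold rise of this probe.

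Ptges encodes the inducible membrane-bound prostaglandin E synthase, which makes prostaglandin E2 from the product of the cyclooxygenases. At D180 the 6 vehicle rats had log2 signals of 5.93, 4.24, 5.77, 6.63, 4.00 and 5.36, and the 6 DQ-12 rats had 6.83, 7.18, 6.16, 6.38, 6.77 and 6.23. The DQ-12 rats lay close together (SD 0.40), whereas the vehicle rats were spread widely (SD 1.02), and the highest of them lay within the DQ-12 range. On the 2 lowest vehicle arrays, replicates 2 and 5, the probe was not well above background, so the vehicle group was measured on 4 of 6 arrays. Ptges was 2.41-fold higher in DQ-12 rats (log2 1.27 ± 0.35, SE, adjusted p = 0.00889, exact permutation p = 0.0152). Without either of those 2 vehicle rats the Ptges log2 fold change at D180 was 1.05 and 1.00 (adjusted p = 0.0351 and 0.0373). Without both, a fit added after the values were seen, it was 0.67 and did not pass (adjusted p = 0.185), so the call rested on these 2 arrays. It also missed the threshold with scan date or slide as a fixed block (1.09 and 0.19, adjusted p = 0.0577 and 0.976), with D180 fitted alone (adjusted p = 0.0749) and over the dates that held both groups (1.09, adjusted p = 0.0812, 4 rats per group). It was 0.61 on the scan date with 3 rats of each group. At D1 and D30 the Ptges differences were 0.12 (adjusted p = 0.867) and -0.32 (adjusted p = 0.766), and the groups overlapped.

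Hpgd encodes the dehydrogenase that starts the breakdown of prostaglandin E2 and related prostanoids. At D180 its log2 signal was 11.61, 11.63, 11.54, 11.64, 11.90 and 12 in vehicle rats, whereas the DQ-12 rats had 10.78, 9.93, 10.48, 10.67, 11.61 and 10.79. In 5 of 6 DQ-12 rats it was below all vehicle rats, and the exception, replicate 5, lay within the vehicle range. Hpgd was 2.01-fold lower in DQ-12 rats (log2 -1.01 ± 0.18, SE, adjusted p = 9.11e-05, exact permutation p = 0.00433), which is just past the fold threshold. The difference ranged from -1.19 to -0.85 as each rat of any group was left out. It was under 2-fold without vehicle replicate 5 or 6 or without DQ-12 replicate 2, 3 or 4, while its adjusted p stayed under 0.05 in each of these fits. With scan date as a fixed block the Hpgd log2 fold change at D180 was -0.90, under 2-fold but past the adjusted p (0.00464), and with slide as a fixed block it was -0.86 and did not pass (adjusted p = 0.367). At D180 a single slide held both groups, with 1 array of each. It was -1.20 on the scan date with 3 rats of each group and -0.02 on the date with 1 of each, which held DQ-12 replicate 5. The earlier differences were -0.29 at D1 (adjusted p = 0.289) and -0.46 at D30 (adjusted p = 0.158), where 3 of 6 DQ-12 rats lay below all vehicle rats. Over its 3 times the change in Hpgd had the same sign, but the difference between D180 and D1 was not past the threshold (-0.71, adjusted p = 0.103).

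Hpgds encodes the prostaglandin D synthase of hematopoietic cells such as mast cells. It varied widely between rats of a group, with SDs of 0.62 to 1.03. In vehicle and DQ-12 rats it ranged from 5.10 to 7.13 and from 4.79 to 7.44 at D1, from 5.98 to 7.96 and from 4.68 to 7.29 at D30, and from 5.28 to 7.61 and from 5.35 to 7.08 at D180. None of these ranges separated the groups. The differences of 0.19, -0.59 and -0.76 did not pass (adjusted p = 0.844, 0.62 and 0.318), and with a confidence interval of -1.71 to 0.20 at D180, a 2-fold fall was not excluded. The second Hpgds probe, well above background on all 36 arrays, gave 0.51, -0.27 and -0.84 (adjusted p = 0.414, 0.873 and 0.142 over all probes).

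In the leukotriene branch, Alox5 encodes the lipoxygenase that makes leukotriene A4, and Alox5ap encodes the membrane protein that presents arachidonic acid to it. Alox5ap ranged from 8.92 to 9.41 (median 9.08) in vehicle rats at D1 and from 9.40 to 10.05 (median 9.71) in DQ-12 rats, of which 5 of 6 lay above all vehicle rats. It was 1.52-fold higher (log2 0.61 ± 0.14, SE, adjusted p = 0.00275). The difference was 0.32 against the single vehicle rat of the shared scan date, which had the highest D1 vehicle signal. With scan date as a random block the Alox5ap log2 fold change at D1 was 0.53 and missed the threshold (adjusted p = 0.0504). With slide or scan date as a fixed block it did not pass either. At D30 it was 0.03 (adjusted p = 0.974) and at D180 it was 0.21 (adjusted p = 0.357). Alox5 itself differed by -0.26, -0.25 and -0.20 (adjusted p = 0.184, 0.347 and 0.328), with overlapping groups at each time. Its second probe was well above background on 2 of 36 arrays and differed by -0.44, -0.09 and -1.26, of which the last passed over all probes (adjusted p = 0.0205).

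Lta4h and Ltc4s share the substrate leukotriene A4. The hydrolase encoded by Lta4h turns it into leukotriene B4, an attractant of neutrophils, and the synthase encoded by Ltc4s couples it to glutathione to start the cysteinyl leukotrienes. Lta4h ranged from 13.27 to 13.66 (median 13.52) in vehicle rats at D1, and the DQ-12 rats had 13.15, 12.30, 13.19, 13.12, 13.15 and 13.20. All 6 DQ-12 rats lay below all vehicle rats, and replicate 2 lay far below the other five. The difference was -0.47 ± 0.12 (log2, SE, adjusted p = 0.00866, exact permutation p = 0.00216, the smallest these groups allow), -0.32 without DQ-12 replicate 2 (adjusted p = 0.0329) and -0.54 on the shared scan date. With scan date as a random block it was -0.49 (adjusted p = 0.0506), and with slide or scan date as a fixed block it did not pass either. With 75th percentile scaling it was -0.39 and missed the threshold (adjusted p = 0.0635). At D30 and D180 it was 0.07 (adjusted p = 0.901) and 0.23 (adjusted p = 0.236). Ltc4s did not pass at any time. Its difference was 0.27 at D1 (adjusted p = 0.443). At D30 it was -0.66 (adjusted p = 0.086), where vehicle rats ranged from 6.25 to 7.32 and DQ-12 rats from 5.65 to 6.36. At D180 it was 0.60 (adjusted p = 0.0537), where they ranged from 6.03 to 6.87 and from 6.37 to 7.72. Both lay close to the threshold. Without vehicle replicate 3 the Ltc4s log2 fold change at D30 passed (adjusted p = 0.0442). The Ltc4s log2 fold change at D180 passed without vehicle replicate 4 (adjusted p = 0.0321) or DQ-12 replicate 3 or 6 of that time (adjusted p = 0.0147 and 0.0299), and, through the pooled spread, without vehicle replicate 4 or 6 of D1 or vehicle replicate 1 of D30 (adjusted p = 0.0285, 0.0499 and 0.0459).

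Alox15 encodes the lipoxygenase that adds oxygen nearer the other end of arachidonic acid and takes part in lipoxin and hydroxy fatty acid synthesis. It is known from immature red blood cells, eosinophils and some macrophages. At D1 the vehicle rats had log2 signals of 7.78, 7.35, 6.58, 7.81, 8.12 and 8.17, and the DQ-12 rats had 6.64, 6.61, 6.40, 6.5, 6.33 and 6.95. At D30 the vehicle rats had 6.63, 7.27, 6.81, 7.57, 8.18 and 7.48, and the DQ-12 rats had 5.44, 5.77, 6.40, 5.61, 6.70 and 6.68. At D180 the vehicle rats had 6.53, 6.95, 6.94, 6.69, 7.28 and 7.21, and the DQ-12 rats had 6.03, 5.67, 5.64, 6.31, 5.12 and 5.99. The groups overlapped slightly at D1 and D30 and did not overlap at D180, as for 7.26% of all genes (3.82% higher and 3.45% lower). On the lowest D180 array, DQ-12 replicate 5, the probe was not well above background. Alox15 was 2.09-fold lower at D1 (log2 -1.06 ± 0.26, SE, adjusted p = 0.00465), 2.34-fold lower at D30 (-1.22 ± 0.26, adjusted p = 0.00403) and 2.21-fold lower at D180 (-1.14 ± 0.26, adjusted p = 0.00183). Of all 23940 genes, 4 (0.0167%) were called lower at all 3 times, namely Alox15, Adhfe1, Galnt14 and Tac1, whereas 89 were called higher at all 3.

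The D1 difference of Alox15 rested on the vehicle arrays scanned on other dates than the DQ-12 arrays. With 1 vehicle rat on the shared date, a low rat and an effect of the date cannot be told apart. Vehicle replicate 3, the only vehicle rat scanned on the same date as the DQ-12 rats, had 6.58, within their range, and the other five had 7.35 to 8.17. Within that date the difference was -0.00, and with scan date as a fixed or a random block it was -0.00 (adjusted p = 0.999) and -0.74 (adjusted p = 0.175). At D30 the difference was -0.69 on the date with 4 vehicle rats and 1 DQ-12 rat and -1.21 on the date with 2 and 5, and at D180 it was -0.94 on the date with 3 of each and -1.83 on the date with 1 of each. With scan date as a fixed block it passed at D30 (-1.03, adjusted p = 0.0452), as did the Alox15 log2 fold change at D180 (-1.17, adjusted p = 0.00557). With slide as a fixed block it was -0.08 at D1 (adjusted p = 0.977), passed at D30 (-1.13, adjusted p = 0.045) and was -0.66 at D180, where it did not pass (adjusted p = 0.751). With each time fitted alone, the Alox15 log2 fold change at D30 missed the threshold (adjusted p = 0.0647). Without vehicle replicate 5 or 6 the D1 difference was under 2-fold (-0.96 and -0.95). At D1, exposure and scan date cannot be told apart beyond that 1 vehicle array.

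**Figure D3:**
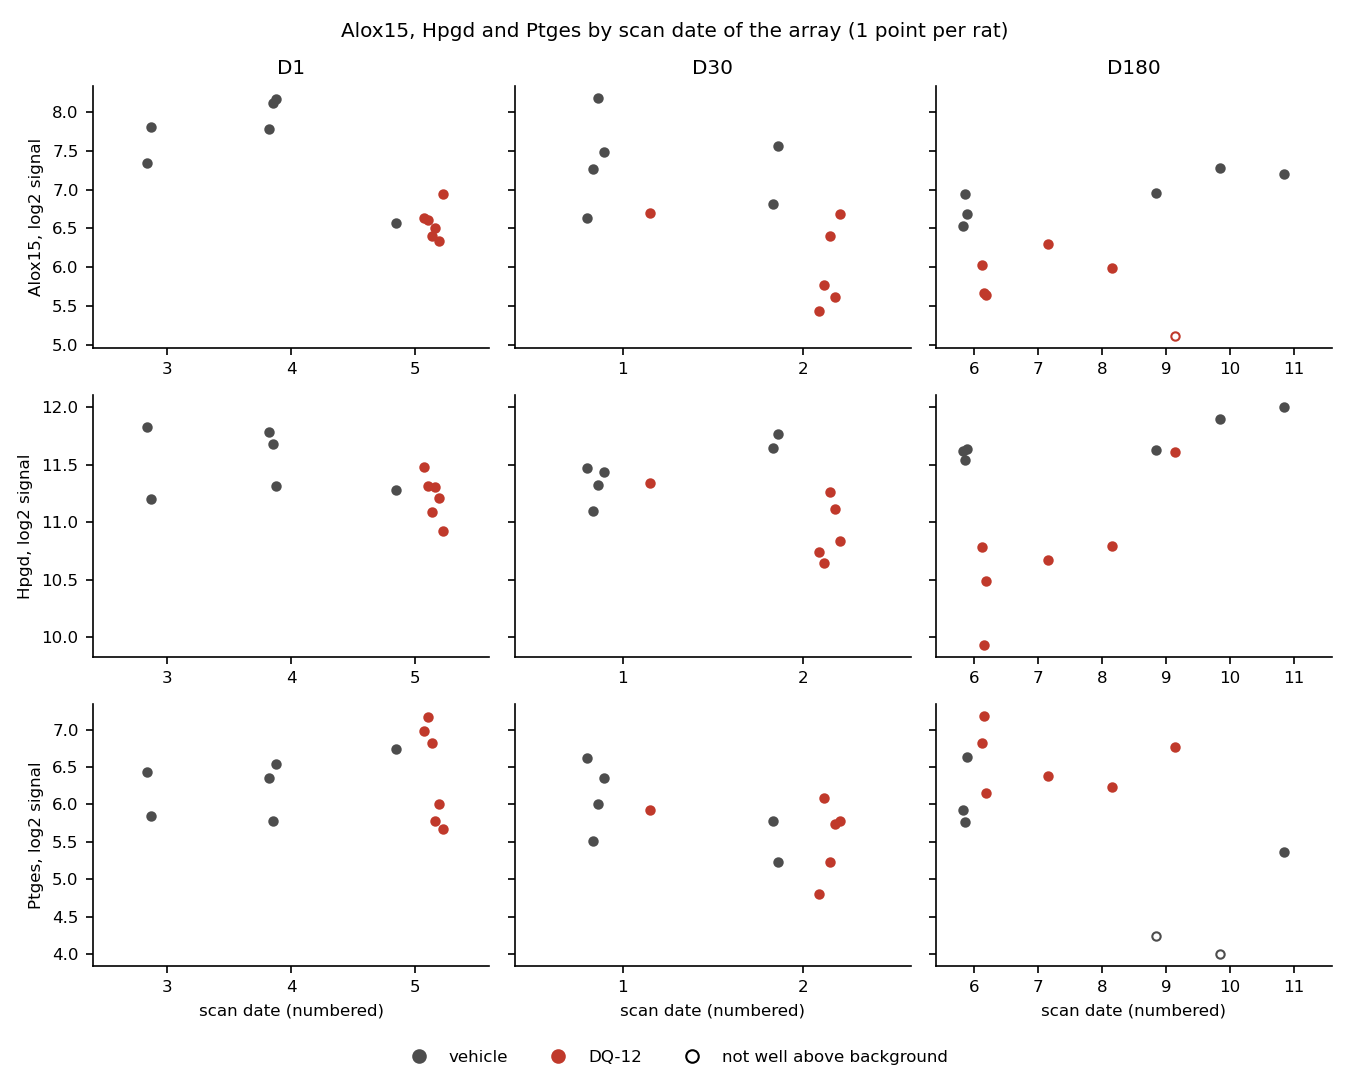
Log2 signal (vertical axis) of Alox15, Hpgd and Ptges in each rat against the numbered scan date of its array (horizontal axis), with vehicle in gray, DQ-12 in red and open points for arrays not well above background. The lone D1 vehicle array of scan date 5 lay among the DQ-12 arrays for Alox15 (6.58), whereas on scan date 6 at D180 all 3 DQ-12 arrays lay below all 3 vehicle arrays for Alox15 and Hpgd.

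Genes of red blood cells were also lower in DQ-12 rats. Their list was drawn up after these data had been seen. Its counts, and the likeness of Alas2 below, describe the same arrays and are not separate support. At D1, group and scan date are mixed for these genes as for Alox15. Of 13 erythroid genes, a list chosen after the data had been seen, all 13 had a lower mean in DQ-12 rats at each time, and 5, 6 and 9 of them passed the test at D1, D30 and D180, all lower (median log2 fold change -0.58, -0.59 and -0.69). Of all genes, 8.62, 1.24 and 9.0% passed lower at these times. The alpha globin gene Hba-a1 differed by -0.75, -0.86 and -0.92 (adjusted p = 0.00859, 0.00838 and 0.000968). The list's summed linear signal ranged at D180 from 439023 to 508199 in vehicle rats and from 350535 to 408662 in DQ-12 rats, with no overlap. At D1 the ranges of 411457 to 475974 and 364720 to 455154 overlapped, as did those of 351606 to 452071 and 319079 to 420004 at D30. Alas2, the erythroid enzyme of heme synthesis, had the pattern most like that of Alox15 across the 36 arrays of all genes tested (root mean square difference of the centered log2 signals 0.43, where Alox15 itself had an SD of 0.77), followed by RGD1310507 (0.47) and Fbln2 (0.48). Alas2 differed by -0.61, -0.76 and -0.69 (adjusted p = 0.0421, 0.0307 and 0.0187). Of the eosinophil markers, 4 were tested, and the median difference was 0.05, -0.08 and -0.43. Siglec5 fell at D180 (-0.91, adjusted p = 4.69e-05) and was the only 1 of the 4 to pass at any time. Epx, which encodes eosinophil peroxidase, was well above background on 2 vehicle and 1 DQ-12 arrays of D30 and on none at D1 or D180. The summed signal of the 4 was 573 to 783 in vehicle rats and 427 to 528 in DQ-12 rats at D180. Its ranges overlapped at D1 (609 to 688 and 477 to 1564) and at D30 (521 to 711 and 454 to 719). The part of red blood cells or eosinophils in the Alox15 result was not tested.

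Markers of the other cells that carry these enzymes moved as well. Of 12 macrophage markers, 1, 6 and 6 were called higher at the 3 times in order and none was called lower, with Trem2 at 3.17 at D30 and 3.58 at D180 (adjusted p = 4.96e-12 and 1.55e-13). Of 10 neutrophil markers, 2, 3 and 5 were called higher, with Il1r2 at 2.98 at D1 and S100a9 at 2.57 at D180 (adjusted p = 1.51e-10 and 4.88e-09). None was called lower, but by the adjusted p alone 1 was lower at D1, where 7 of the 10 had a higher mean. The summed neutrophil signal overlapped between groups at D1 (10688 to 23296 against 14363 to 30043). It did not overlap at D30 (9594 to 19854 against 25390 to 65693) or D180 (11583 to 19731 against 51678 to 73854). The summed signal of the macrophage list did not overlap between groups at any time (18731 to 25970 against 27190 to 36433 at D1, 14630 to 18029 against 30207 to 47680 at D30, and 18829 to 25916 against 48690 to 86316 at D180). Beside these, Alox5 and Alox5ap, genes of leukocytes, did not pass at D30 or D180. Of 11 mast cell markers, none was called at D1 or D30 and 2 were called at D180, Tpsab1 (1.57, adjusted p = 0.000339) and Cma1 (1.28, adjusted p = 0.0167), both higher. By the adjusted p alone, 6 were higher and 1 was lower at D180 (Kit, -0.69, adjusted p = 0.000624), with a median log2 fold change of 0.76. The summed signal of the list overlapped between groups (10319 to 16573 against 9524 to 16338). Kit was the brightest gene of the list in each group, so this sum leans on the marker that fell. At D180, 6 of 7 endothelial markers fell (Tek by 0.65 on the log2 scale, Cldn5 by 0.90) and 5 of 6 alveolar type 1 markers fell (Rtkn2 by 0.75), in the comparison in which Hpgd fell. The summed endothelial signal was 125546 to 142187 in vehicle rats and 70230 to 115673 in DQ-12 rats, and the alveolar type 1 sum was 295539 to 386826 and 227798 to 262999. The part of these cells in the changes of Hpgd, Ptges and Alox5ap was not tested.

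**Figure D4:**
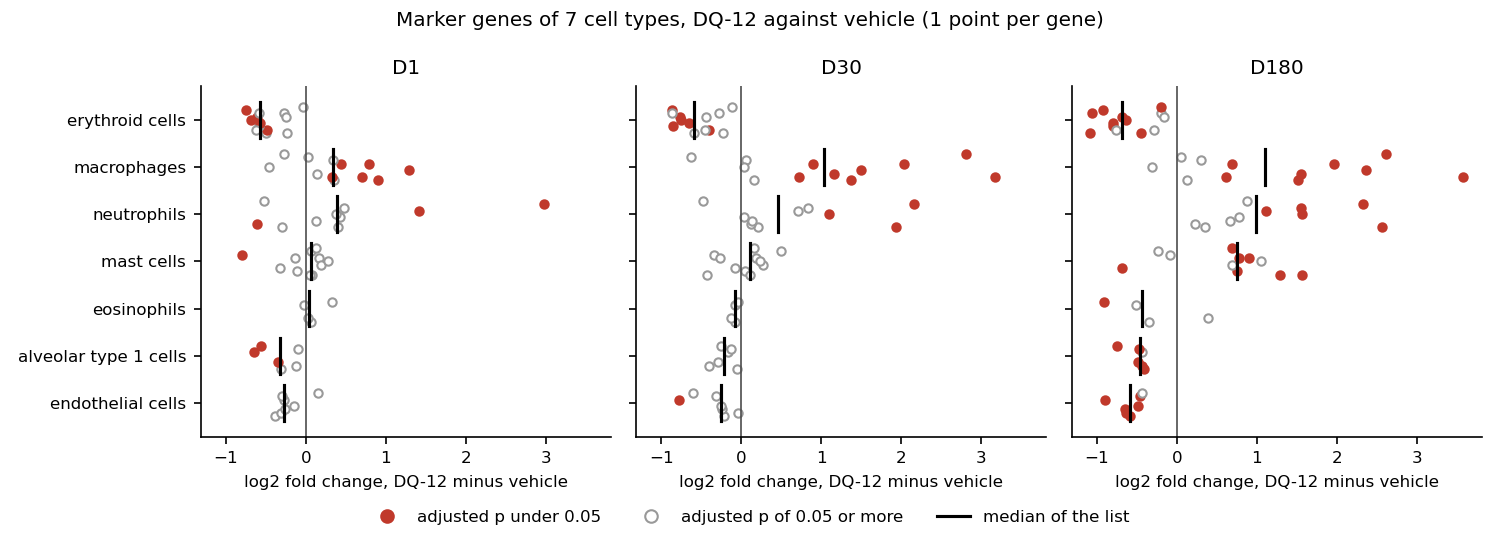
Log2 fold change (horizontal axis, DQ-12 minus vehicle) of the marker genes of 7 cell types at the 3 times, 1 point per gene, red for an adjusted p under 0.05, with a black line at the median of each list. All 13 erythroid genes lay below 0 at each time, macrophage and neutrophil genes lay mostly above it, and endothelial and alveolar type 1 genes all lay below it at D180.

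Whether the effect of DQ-12 differed between times was tested in the same model. The effect on Lta4h differed between D180 and D1 by 0.69 (95% confidence interval 0.34 to 1.05, adjusted p = 0.0177), the only 1 of the 10 genes past the threshold in that comparison, against 4.55% of all genes. The vehicle level of Lta4h was itself lower at D180 than at D1 (-0.50, adjusted p = 0.00826), while its level in DQ-12 rats ranged from 12.30 to 13.20 at D1 and from 13.04 to 13.41 at D180. None of the 10 passed between D1 and D30 or between D30 and D180, against 2.18 and 0.246% of all genes. For Ltc4s the effect at D180 exceeded that at D30 by 1.26 (adjusted p = 0.0625) and for Ptges by 1.59 (adjusted p = 0.163). The effects on Alox15 differed by -0.16, 0.08 and -0.08 between the pairs of times, with confidence intervals of -0.92 to 0.59, -0.67 to 0.84 and -0.83 to 0.67. In vehicle rats alone, Alox5 was also lower at D180 than at D1 (-0.40, adjusted p = 0.0419), against 10.6% of all genes past the threshold, and Alox15 (-0.70, adjusted p = 0.0814) and Ptges (-0.96, adjusted p = 0.0703) were not past it. These comparisons across times also cross scan dates. With scan date or slide as a fixed block the Lta4h difference D180-D1 was 0.75 and 0.65 and did not pass (adjusted p = 0.243 and 0.697).

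The rest of the pathway was followed in a list of 63 genes for phospholipases, further synthases, transport, inactivation and receptors, of which 59 were on the array and tested. The calls among them numbered 1 at D1, 0 at D30 and 3 at D180, all higher, against 3.07, 1.05 and 3.63% of all genes. By the adjusted p alone, 3 were higher and 3 lower at D1, 1 and 2 at D30, and 6 and 7 at D180, that is 6, 3 and 13 of 59, beside 16.2, 3.98 and 16.8% of all genes. The median log2 fold changes of the 59 were 0.08, 0.03 and -0.01.

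Among the phospholipases, Pla2g7, a secreted enzyme that hydrolyzes platelet-activating factor and oxidized phospholipids, was higher at each time. It ranged from 9.06 to 9.70 in vehicle rats at D180 and from 10.91 to 12.42 in DQ-12 rats. The groups did not overlap at any time, which held for 11.2, 2.36 and 7.26% of all genes at D1, D30 and D180. Its differences were 0.94 at D1 (adjusted p = 0.000709), 0.76 at D30 (adjusted p = 0.0174) and 2.36 ± 0.19 at D180 (adjusted p = 7.72e-11), and the D180 effect exceeded the D30 effect by 1.60 (adjusted p = 0.0046). Pla2g10, a secreted phospholipase A2, was called higher at D1 (1.11, adjusted p = 0.0382). It ranged from 3.93 to 5.66 in vehicle rats and from 3.92 to 6.52 in DQ-12 rats. The Pla2g10 probe was well above background on 3 of 6 vehicle arrays there, and the call was lost when any of 8 of the 12 D1 rats was left out. Pla2g15 and Pla2g2d, a lysosomal and a secreted enzyme, fell at D1 (-0.63 and -0.59, adjusted p = 0.0128 and 0.0282). For all genes of the pathway list, group and scan date are mixed at D1 as for Alox15.

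Alox12, the platelet-type lipoxygenase, ranged from 5.81 to 7.16 in vehicle rats at D180 and from 7.17 to 9.45 in DQ-12 rats. The groups just failed to overlap, as for 7.26% of all genes at D180. The difference was 1.85 ± 0.28 (3.6-fold, adjusted p = 7.69e-06), against -0.11 and 0.43 at D1 and D30 (adjusted p = 0.844 and 0.499). The platelet list had 6 tested markers, none of them called at any time, with a median of -0.32 at D180. Its summed signal at D180 was 3101 to 5465 in vehicle rats and 3149 to 5785 in DQ-12 rats. The part of platelets in the Alox12 result was not tested. Ephx1, a microsomal epoxide hydrolase, fell at D30 (-0.70, adjusted p = 0.0157) and Ggt1, a gamma-glutamyl transferase, rose at D1 (0.64, adjusted p = 0.0209). Of the further prostanoid synthases only Tbxas1, thromboxane synthase, passed, at D180 (0.86, adjusted p = 0.000293), with no overlap between 9.73 to 10.65 in vehicle rats and 10.86 to 11.22 in DQ-12 rats.

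Of the 5 transport and inactivation genes tested, 2 passed by the adjusted p at D180, both lower, beside 9.0% of all genes, and none passed at D1 or D30. Slco2a1, the carrier that takes prostaglandins into cells for breakdown, fell by 0.54 on the log2 scale (adjusted p = 0.000617), and Ptgr1, a prostaglandin reductase, fell by 0.46 (adjusted p = 0.0108). Slco2a1 had differences of -0.22 and -0.31 at D1 and D30, and its D180 effect did not differ from either past the threshold (adjusted p = 0.271 and 0.617). For Ptgr1 the D180 effect differed from that at D1 (-0.63, adjusted p = 0.0398) but not past the threshold from that at D30 (-0.48, adjusted p = 0.274). The other 3 tested genes of that group (Abcc4, Ptgr2 and Cbr4) differed by -0.02, -0.01 and -0.07 and did not pass. Of the prostanoid receptors, Ptger2, the EP2 receptor for prostaglandin E2, was 2.47-fold higher at D180 (log2 1.31 ± 0.24, adjusted p = 0.000123), with 5 of 6 DQ-12 rats above all vehicle rats (5.61 to 6.89 in vehicle and 6.60 to 8.25 in DQ-12 rats). The Ptger2 differences at D1 and D30 were 0.05 (adjusted p = 0.922) and 0.15 (adjusted p = 0.876). The thromboxane receptor gene Tbxa2r and Ptgfrn, whose product binds the receptor of prostaglandin F2 alpha, fell at D180 (-0.57 and -0.54, adjusted p = 0.0152 and 0.00028). Of the leukotriene and lipoxin receptor group, Cysltr1, a receptor of cysteinyl leukotrienes, rose at D180 (0.50, adjusted p = 0.0052), and Fpr1, a formyl peptide receptor, fell at D30 and D180 (-0.95 and -0.57, adjusted p = 0.00242 and 0.0365).

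**Figure D5:**
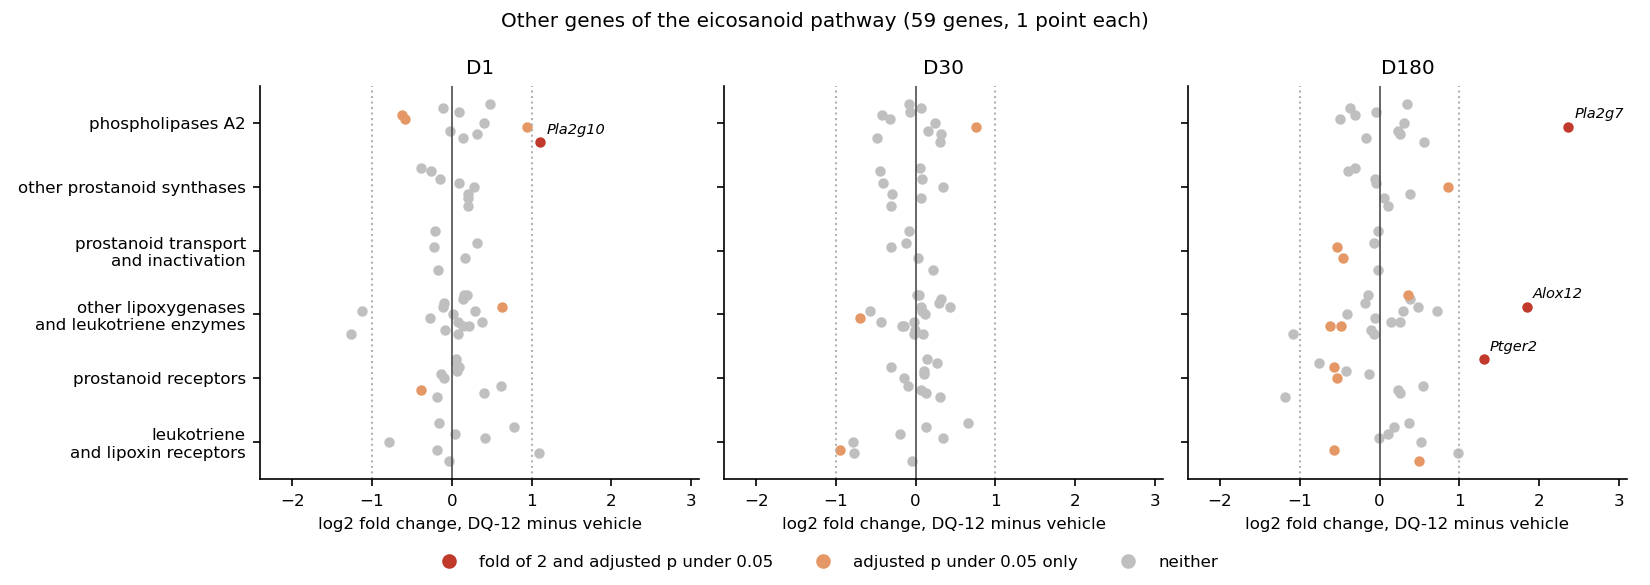
Log2 fold change (horizontal axis, DQ-12 minus vehicle) of 59 other genes of the pathway in 6 groups by role at D1, D30 and D180, 1 point per gene, with red for genes past a fold change of 2 (dotted lines) and an adjusted p of 0.05, orange for the adjusted p alone and gray for neither. Pla2g10 at D1 and Pla2g7, Alox12 and Ptger2 at D180 were the named red points.

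The genes whose pattern over the 36 arrays was most like that of Hpgd were Ackr4, Ano1 and Dusp14 (root mean square difference 0.26, 0.27 and 0.28). Ackr4, a scavenging chemokine receptor, had differences of -0.59, -0.41 and -1.03. Those most like Ptges were LOC102557535, Car9 and Oprd1 (0.37, 0.41 and 0.42), and none of these 3 passed the test at any time. The arrays share group, time and scan date, and these likenesses are descriptions only.

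Of the other member probes, the second of Ptgs1 was well above background on 27 arrays and gave -0.21, -0.48 and 0.09, none past the threshold (adjusted p = 0.647, 0.395 and 0.896). The additional Ptgs2 probes were well above background on 23 and 2 arrays. The former gave 0.38, 0.39 and -0.44 (adjusted p = 0.552, 0.742 and 0.504). The latter gave 0.79, 0.53 and -0.24 (adjusted p = 0.127, 0.546 and 0.753). At D180 the sign of both was opposite to that of the brightest probe, and no Ptgs2 probe passed at any time. No array measured the second Ltc4s probe well above background. Ptges, Hpgd, Alox5ap, Alox15 and Lta4h each had 1 probe, so no second measurement of their changes was at hand.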

How the data were processed

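The authors scanned 36 single-color Agilent arrays, 1 per rat, and extracted them with Feature Extraction 12.0.1.1. The deposited array files hold background-corrected intensity per spot, and the deposited log2 values equal the log2 intensity minus the array's 75th percentile, centered on each probe's median (median absolute difference 0.00177). That intensity was used here. Each array had 58717 spots, of which 232 to 596 outlier spots were dropped, spots of a probe were averaged on the log2 scale, and probes above the 95th percentile of 308 negative controls on at least 6 arrays were quantile normalized. The probe with the highest mean signal stood for a gene. limma 3.58.1 (R 4.3.3) fitted 6 group means with 2-sided tests, and genes with both an adjusted p below 0.05 and a 2-fold or larger change were called. Exact permutation tests used the 924 splits of 12 arrays. The labels do not say whether the rats of a group were kept or processed apart, so p-values measure the spread between these samples. The study's batch variable is not named, and none entered the model. Fitting was tested on simulated data. With 6 arrays per group, the number of arrays limits precision.

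The 10 genes and all lists were chosen with earlier results of these data known, and the erythroid list and the restriction of D180 to shared scan dates, as well as the fit without both vehicle arrays with a dim Ptges probe, after seeing these results. All 10 genes were named. Of the 59 other pathway genes, those called at any time were named, and up to 2 others per role group with the largest change past the adjusted p. Alternatives changed the normalization, background correction, filter, probe summary, model, slide or scan date as a block, threshold, and each rat left out in turn. Promoters were taken from RefSeq (GRCr8) and searched with Python 3.11.15. Figures used matplotlib 3.10.9.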

Additional observations from a re-analysis of the deposited data

Results flagged for a closer look

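In 3 of 60 groups of 6 rats checked over the 10 genes, 1 rat lay far from the others, and chance flags such a gap in roughly 5% of groups. Lta4h in DQ-12 replicate 2 at D1 was 12.3 against 13.12 to 13.20 in the other five. Lta4h in vehicle replicate 6 at D180 was 12.54 against 12.97 to 13.23. Hpgds in vehicle replicate 1 at D180 was 5.283 against 6.78 to 7.61. Without these rats, the Lta4h difference was -0.32 at D1 (adjusted p = 0.0329) and 0.14 at D180, and the Hpgds difference was -1.06 at D180 and did not pass (adjusted p = 0.127).

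The effect of DQ-12 on Lta4h differed between D180 and D1 by 0.6944 on the log2 scale (limma interaction, adjusted p = 0.0177). The Lta4h difference D180-D1 was 0.55 without DQ-12 replicate 2 at D1 (adjusted p = 0.0202) and 0.75 with scan date as a fixed block, where it did not pass (adjusted p = 0.243).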

How the results depend on the processing

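No result past the adjusted p reversed its direction under an alternative. Of the results that had not passed, 16 took the other sign under at least 1 alternative (48 values, lowest adjusted p 0.65), among them Ptgs2, Ptges, Hpgds and Ltc4s at D1 and Ptgs1 and Alox5ap at D180. The counts of the 10 genes called at D1, D30 and D180 were 1, 1 and 3. They were 0, 0 and 0 with normexp background correction and 0, 0 and 0 when the fit tested against a fold of 2. With normexp, the log2 fold change of Alox15 was smaller but passed at each time, and Ptges and Hpgd passed at D180. The count at D1 was 0 with slide or scan date as a fixed block and 0 with either as a random block, and 2 at a fold change of at least 1.5. At D30 it was 0 with each time point alone. At D180 it was 1 with array weights, 1 with scan date as a fixed block, 1 on scan dates with both groups, 1 without both vehicle arrays with a dim Ptges probe and 0 with slide as a fixed block. Counts by the adjusted p were 0 at D1 with slide or scan date as a fixed block or scan date as a random block and 2 with slide as a random block. At D30 they were 3 with array weights and 0 with each time point alone, and at D180 0 with slide as a fixed block. Genes without overlap numbered 0 at D1 and 1 at D30 with 75th percentile scaling and with the deposited log2 values, and 1 at D1 and 2 at D180 with the mean of all probes of a gene.

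Effects that differed between D1 and D30 numbered 3 with array weights. Between D30 and D180 they numbered 1 with array weights, with trend and robust moderation and with a filter for probes clear of background throughout a group, and between D1 and D180 they numbered 0 with slide or scan date as a fixed block. Vehicle levels that differed between D1 and D180 numbered 1 with the mean of all probes or scan date as a random block, 0 on scan dates with both groups and 1 without those 2 arrays. The pathway genes called at D1 numbered 0 with 75th percentile scaling, the deposited values, normexp, the replicate block, slide or scan date as a fixed or random block or a test against a fold of 2, 2 with array weights and 5 at a fold change of 1.5. At D30 they numbered 1 with array weights and 3 at a fold change of 1.5, and at D180 5 at a fold change of 1.5 and 1 against a fold of 2. The cause was not tested.

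With the replicate number as a block, Pla2g10 at D1 was lost (adjusted p = 0.0547), and no other call changed. Same-numbered rats correlated at -0.13 to 0.22 (18 pairs, 6 over 0.1), so the numbers were not taken as pairs. As each rat was left out, the 10 genes gave 0 to 1 calls at D1 (0 without vehicle replicate 5 or 6), 1 to 1 at D30 and 2 to 3 at D180, and 3 to 4, 1 to 2 and 3 to 4 by the adjusted p. Groups did not overlap for 2 to 4, 0 to 1 and 1 to 2 genes, and the pathway calls ranged from 0 to 2, 0 to 1 and 3 to 3. Effects differed for 0 to 0 genes between D1 and D30, 0 to 1 between D30 and D180 and 1 to 2 between D1 and D180, and vehicle levels for 0 to 0 (D30) and 1 to 3 (D180). Dim probes (Ptges and Pla2g10) limit what the signal over background can show.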
